A study of Mus musculus with 2 samples.

Results

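The 10 genes described here are transcription factors grouped as midbrain and diencephalon patterning factors. The group holds the Otx genes Otx1 and Otx2, Gbx2, the paired-box genes Pax3 and Pax7, the Meis genes Meis1 and Meis2, and the Iroquois genes Irx1, Irx2 and Irx3. These genes were taken by gene name from the array annotation, which names 37074 genes, and every probe that carries one of the names was kept, 21 probes in all. Their levels were compared between Plzf lu/lu and wild type (C57BL/6) embryos in RNA from forebrain and midbrain at E10.5 (days of embryonic development). Luxoid (lu) is a spontaneous point mutation near the start of the coding sequence of Plzf (Zbtb16), a zinc-finger transcriptional repressor, and lu/lu embryos carry it on both copies, in every tissue, with a truncated protein as the product. The data are 2 two-colour arrays described as biological replicates, each with 1 wild type RNA labelled with Cy3 and 1 lu/lu RNA labelled with Cy5. Sex, the number of embryos behind each RNA and the genetic background of the luxoid line were not given in the sources used here. The dyes were not swapped, so an effect of the dye on a probe and an effect of the genotype cannot be told apart. The same holds for fewer cells of a type and less RNA per cell, since the tissue was measured in bulk.

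Otx2 is required for forebrain and midbrain identity, and Gbx2 is expressed behind it in the anterior hindbrain. They repress each other, and the line where they meet forms the isthmus, an organizer that patterns the midbrain through secreted Fgf8. Pax3 and Pax7 mark the dorsal neural tube. Meis proteins are homeodomain cofactors that bind DNA with Pbx partners, and they are expressed across the diencephalon and dorsal midbrain. Iroquois proteins are homeodomain repressors that help set the border inside the diencephalon from which the thalamus is organized.

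The probes that carry the comparisons are 60 bases long, and they are shown because each member other than the Meis genes, Otx2 and Pax3 was read by 1 of them alone. The first 30 bases of the brightest probe of each member that moved past 1.3-fold on both arrays are given here, 5′ to 3′ in the sense of the RNA, with no part in capitals.
Otx2: tttcagggctgtgtggattgtgcgactgat
Gbx2: gagagtatattcattagacgggcttaaagg
Pax3: tgtttccggcctccacagactagacatgaa
Irx2: tatgagaacttgttgtcatagtatagcttc
In the mm9 coordinates of the array annotation these probes lie at chr14:49277855-49277914 on the minus strand for Otx2, chr1:91825013-91825072 on the minus strand for Gbx2, chr1:78099294-78099353 on the minus strand for Pax3 and chr13:72770897-72770956 on the plus strand for Irx2. The array annotation assigns all 4 to RefSeq transcripts of the named gene, and whether they fall in coding or untranslated exons was not resolved here.

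Otx1 and Otx2 encode closely related homeodomains, and a pair of their probes read parts of the homeobox that overlap over 26 bases. They are printed whole because the stretch they share, in capitals, bears on how well the array separates the genes.
Otx2: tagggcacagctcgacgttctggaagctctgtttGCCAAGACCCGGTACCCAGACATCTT
Otx1: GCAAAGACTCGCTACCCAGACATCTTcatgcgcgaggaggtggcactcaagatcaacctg
The last 26 bases of the Otx2 probe and the first 26 bases of the Otx1 probe were the same at 23 positions (88.5%). The remaining bases of each probe lie outside the shared stretch.

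Of the 10 members, 6 had a processed signal above 200 and a signal-to-noise ratio of 5 or more, which is the study's filter, in each of the 4 channels. The other 4 (Otx1, Gbx2, Pax7 and Irx2) missed it, and Irx2 missed it through its lu/lu channels alone. By the scanner software's own test all 10 were well above background in all 4 channels. A gene was counted as higher or lower when its ratio passed 1.3-fold in the same direction on each array. Under the filter, 1 member was higher (Otx2) and 1 was lower (Pax3), where 2.58% of the 10600 genes that passed were higher and 0.736% were lower. Among the 23283 genes well above background, 2.52% were higher and 2.07% were lower. By that criterion 1 of the 10 members was higher (Otx2) and 3 were lower (Gbx2, Pax3 and Irx2). No member reached an adjusted p of 0.05 in the limma fit across the 10600 genes (Benjamini-Hochberg), in which 3 genes did, Shh among them. At an unadjusted p under 0.05 in that fit there were 5 of the 6 members tested (Otx2, Meis1 and Meis2 higher, Pax3 and Irx1 lower). Beside them, 1665 genes were higher and 1277 lower among all 10600. With the probes of a gene averaged, 2 members were under that limit, beside 795 genes higher and 1045 lower.

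**Figure D1:**
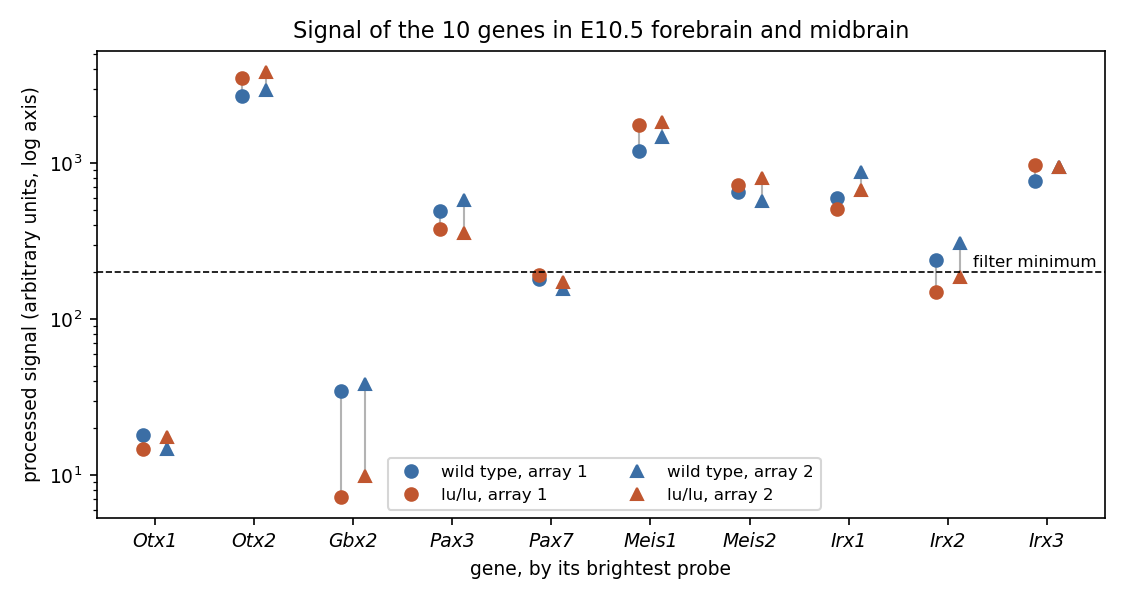
Processed signal (log axis, arbitrary units) of each member's brightest probe in the wild type (blue) and lu/lu (orange) channels of array 1 (circles) and array 2 (triangles); each grey line joins the channels of 1 array, and the dashed line is the filter minimum of 200. Gbx2 shows the widest separation of wild type from lu/lu, and the Irx3 channels of array 2 nearly coincide.

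Otx2, the factor required for forebrain and midbrain identity, was counted as higher in lu/lu. The wild type signals of its brightest probe were 2699 on array 1 and 2941 on array 2, against 3522.5 and 3851 in lu/lu. Both lu/lu values lay above both wild type values. Such a separation of values, here and for the members below, is read across the arrays and not within the pairs. The share of all genes that show it was not counted. The log2 ratio was 0.38 on array 1 and 0.39 on array 2 (mean 0.39 ± 0.0035, SD, n = 2), or 1.305-fold and 1.310-fold, so that Otx2 stood just past the 1.3-fold limit. The limma 95% interval ran from 0.20 to 0.57 on the log2 scale, with an adjusted p of 0.0629 (unadjusted 0.00242). The homeobox probe of Otx2, with signals of 175 to 208, did not share this, and its log2 ratio was -0.10 on array 1 and 0.25 on array 2. The third Otx2 probe lies 168 to 227 bases before a RefSeq start of Otx2 (GRCm38.p6) and is assigned to an Ensembl transcript. It gave signals of 96.9 to 108, with log2 ratios of 0.00 and 0.07. With the 3 probes averaged, Otx2 was no longer counted as higher.

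Otx1, which acts with Otx2 in the forebrain and midbrain, was near the floor of the array. Its signals were 18.0 and 14.8 in wild type and 14.7 and 17.5 in lu/lu, so the groups overlapped. The log2 ratio was -0.29 on array 1 and 0.24 on array 2 (mean -0.02 ± 0.38, SD, n = 2), and a change was not detectable at this signal.

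Gbx2 showed the largest ratio of the 10 members. Its wild type signals were 34.7 on array 1 and 38.7 on array 2, and its lu/lu signals were 7.29 and 9.93. Both wild type values lay above both lu/lu values. The log2 ratio was -2.25 and -1.96 (mean -2.11 ± 0.20, SD, n = 2), which is 4.76-fold and 3.90-fold lower. The size depended on the background correction, with a mean log2 ratio of -0.81 under normexp with loess and -1.48 under normexp centred on the genes that passed the filter. In that centred setting, run without the filter, the median over all 37071 genes was itself -0.53. Of the 23283 genes well above background, 3 had both log2 ratios at or below -1.96: Gbx2, 2410021H03Rik and a transcript without a gene symbol, the last pair noted after their values were seen. The signal-to-noise ratio in lu/lu was 1.90 and 2.51, under the filter's minimum of 5, and in wild type it was 6.51 and 7.42. In the limma fit without a filter the adjusted p was 0.506 (interval -2.62 to -1.59 on the log2 scale). Over the alternatives it ran from 8.52e-24 to 0.564, the lowest being from the centred normexp setting with its lowered median. The adjusted p was 1.16e-06 where the moderation of the variance followed the signal, so the call changed with the variance model while the direction did not. Gbx2 has 1 probe on the array. Against Otx2, its partner at the boundary, the difference in log2 ratio was 2.63 on array 1 and 2.35 on array 2.

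Pax3, a paired-box factor of the dorsal neural tube and neural crest, was lower in lu/lu. Its wild type signals were 497 and 583, and its lu/lu signals were 377 and 360. Both lu/lu values lay below both wild type values. The log2 ratio was -0.40 on array 1 and -0.70 on array 2 (mean -0.55 ± 0.21, SD, n = 2), with a limma interval from -0.79 to -0.31 and an adjusted p of 0.0574. A second Pax3 probe, assigned to an Ensembl transcript only, was dim, with 29.3 and 38.7 in wild type against 12.4 and 17.7 in lu/lu. Its log2 ratios, -1.24 and -1.13, had the same sign. Pax3 is one of the genes the study selected from these same arrays, so its ratio is not independent evidence of a direction.

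Pax7, the paralog of Pax3 in the dorsal midbrain, did not share this pattern. Its signals were 182 and 157 in wild type and 193 and 173 in lu/lu, just under the filter minimum, and the groups overlapped. The log2 ratio was 0.08 and 0.14 (mean 0.11 ± 0.041, SD, n = 2; adjusted p = 0.683 without a filter). The Pax3 ratio lay below that of Pax7 by 0.48 on array 1 and 0.84 on array 2 on the log2 scale, a difference for which no test was run.

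**Figure D2:**
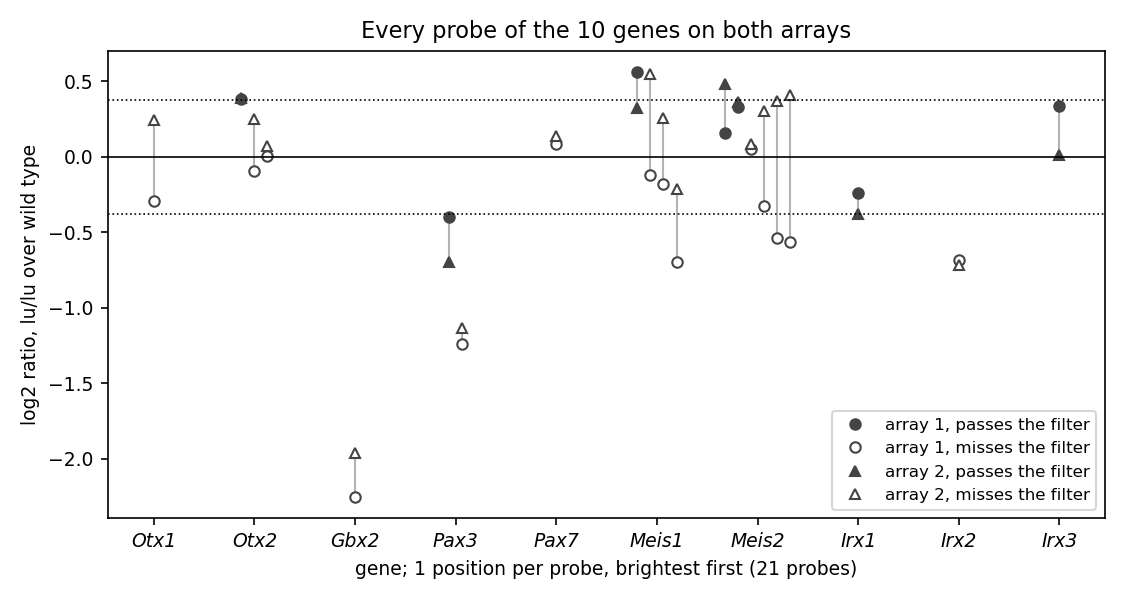
Log2 ratio of lu/lu over wild type for all 21 probes of the 10 genes, brightest probe first within a gene, on array 1 (circles) and array 2 (triangles); filled symbols pass the signal filter and dotted lines mark 1.3-fold. The Pax3 probes are both below 0 on both arrays, and the 3 dimmest Meis2 probes lie below 0 on array 1 and above 0 on array 2.

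Meis1 and Meis2, the homeodomain cofactors, were both higher in lu/lu by their brightest probe without passing 1.3-fold on each array. The Meis1 signals were 1193 and 1471 in wild type and 1761 and 1844 in lu/lu. All lu/lu values were above all wild type values. The fold was 1.48 on array 1 and 1.25 on array 2 (log2 ratio 0.44 ± 0.17, SD, n = 2; limma adjusted p = 0.0680). The Meis2 signals were 652 and 573 in wild type against 727 and 800 in lu/lu, again without overlap. Its log2 ratio was 0.16 on array 1 and 0.48 on array 2 (mean 0.32 ± 0.23, SD, n = 2; limma adjusted p = 0.121).

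Other probes of the Meis genes were mixed. A second bright Meis2 probe gave 0.33 and 0.36 on the log2 scale. Of the 4 Meis1 probes 1 was above 0 on array 1 and 3 were on array 2. Of the 6 Meis2 probes 3 were above 0 on array 1 and all 6 on array 2. One of the Meis2 probes was not well above background. With the probes of each gene averaged, the mean log2 ratio was 0.06 for Meis1 and 0.09 for Meis2. The dimmer Meis probes are mostly assigned to Ensembl transcripts, and which isoforms they read was not resolved here.

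The Iroquois genes did not move together. Irx2 was lower on both arrays, with wild type signals of 239 and 308 against lu/lu signals of 149 and 187. All lu/lu values were below all wild type values. Its log2 ratio was -0.68 and -0.72 (mean -0.70 ± 0.027, SD, n = 2). Of the 23283 genes well above background, 90 were at least as low on both arrays by the smaller of their changes. In the limma fit without a filter the adjusted p was 0.506, and over the alternatives it ran from 5.76e-08 to 0.565. The lowest came from normexp centred on passing genes, where the median over all 37071 genes was -0.53. The adjusted p was 0.000114 where the moderation of the variance followed the signal.

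Irx1 was lower by less, with 600 and 883 in wild type against 508 and 678 in lu/lu. Those values overlap between the arrays, although on each array lu/lu was the lower. The log2 ratio was -0.24 and -0.38 (mean -0.31 ± 0.10, SD, n = 2; limma adjusted p = 0.0916). Irx3 was 771 and 947 in wild type and 974 and 954 in lu/lu, with a log2 ratio of 0.34 on array 1 and 0.01 on array 2 (adjusted p = 0.312). Both lu/lu values of Irx3 were above both wild type values, although 954 and 947 were close. Irx1, Irx2 and Irx4 lie on mouse chromosome 13, and Irx3, Irx5 and Irx6 on chromosome 8 (GRCm38.p6). The ratio of Irx3 exceeded that of Irx2 by 1.02 on array 1 and 0.73 on array 2, and that of Irx1 exceeded that of Irx2 by 0.44 and 0.34.

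**Figure D3:**
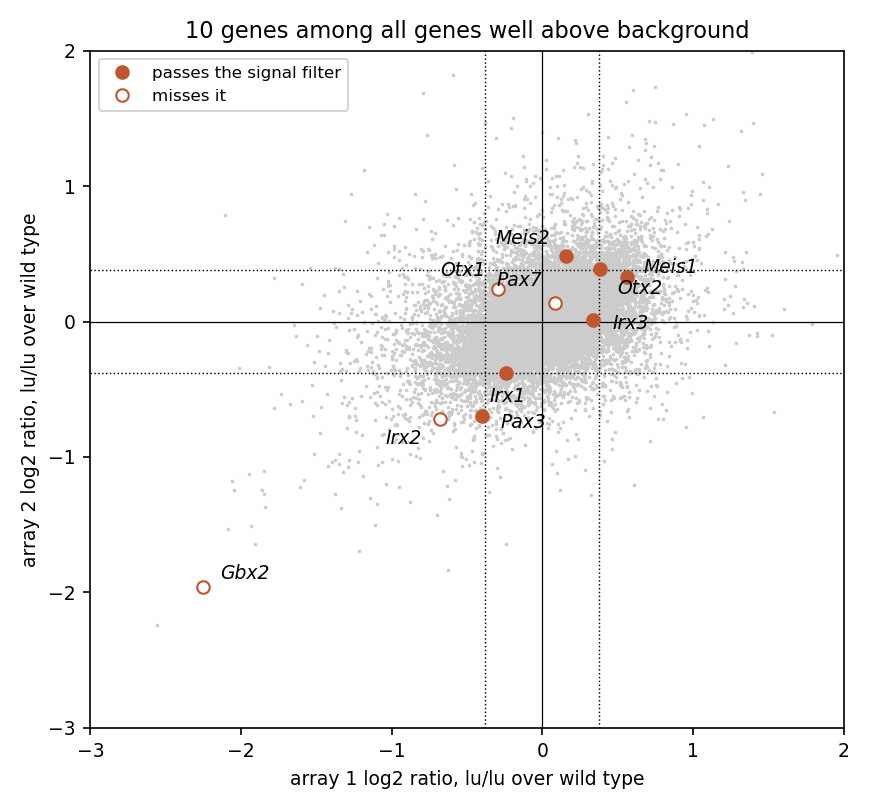
Log2 ratio of lu/lu over wild type on array 1 (horizontal) and array 2 (vertical) for the 23283 genes well above background (grey; 12 lie outside the axes), with the 10 genes in orange and 1.3-fold as dotted lines. Gbx2, Irx2 and Pax3 sit in the lower left corner beyond 1.3-fold on both arrays, and Otx2 sits at the upper limit.

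By sign, 9 of the 10 members had the same direction on both arrays, with 5 above 0 and 4 below on both. Of the genes well above background 66.7% kept their sign, with 33.4% above 0 and 33.2% below on both. The median log2 ratio of all 10 members was 0.04, and that of the genes well above background was 0.0018. No set test was run on these counts and medians, and they are not read as a result about the members.

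Paralogs and partners of the members were also read. The remaining Iroquois genes were dim. Irx5 gave log2 ratios of -0.24 and -0.04, Irx4 gave 0.38 and -0.69, and Irx6 was above 1.3-fold on both arrays at 0.53 and 0.74, from wild type signals of 57.1 and 60.2. Gbx1, the paralog of Gbx2, was also dim, with wild type signals of 46.8 and 43.6. It was lower beyond 1.3-fold on both arrays, at -0.49 and, just past the limit, -0.38. Of the 9 other TALE-class genes, which include the Pbx partners of Meis, 7 passed the filter and none was past 1.3-fold on both arrays. Of 7 other Pax genes the filter kept Pax6 (0.37 and 0.11). Among the TALE genes Meis3 gave -0.30 and 0.05.

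The regional lists held more genes past 1.3-fold. Of 13 midbrain and isthmus genes 7 passed the filter, and 1 was lower: En2, an engrailed factor of the midbrain and anterior hindbrain, at 1917 and 2310 in wild type and 527 and 974 in lu/lu (limma log2 ratio -1.55 ± 0.44, SD, n = 2; adjusted p = 0.0510). Of the 12 well above background, 3 were lower: En2, Cnpy1 (log2 ratio -1.29 and -1.08) and Pax8 (-0.52 and -0.58). Fgf8, the secreted signal of the isthmus, gave 0.40 and 0.19. Of 9 ventral midbrain genes 5 passed and 2 were higher, Shh at 1.06 and 1.03 (limma adjusted p = 0.0469) and Foxa2 at 0.72 and 1.22. The others that passed were Lmx1a (-0.35 and 0.30), Nkx6-1 (-0.70 and 0.01) and Nkx6-2 (-0.42 and 0.09). The median of this list under the filter was -0.03, with -0.35 on array 1 and 0.30 on array 2. Of the 13 dorsal midbrain genes none of the 8 that passed was past 1.3-fold on both arrays. Atoh1, a rhombic lip factor on the hindbrain list, had 91.6 and 83.9 in wild type and 2.84 and 3.92 in lu/lu, where it was not well above background, so no fold is given. Cnpy1, Pax8, Fgf8, Lmx1a, Nkx6-1, Nkx6-2 and Atoh1 were singled out after their values were seen. En2, Cnpy1, Shh and Foxa2 are among the genes the study selected from these same arrays. The ratios of these selected genes are not independent evidence of a direction.

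The diencephalic and telencephalic lists held genes past 1.3-fold in the upward direction under the filter and none downward. Of 14 diencephalic genes 7 passed and 3 were higher, among them Tcf7l2, a thalamic Wnt effector, at 0.78 and 0.48, and Six3, a factor of the rostral forebrain, at 0.62 and 0.47. The diencephalic median log2 ratio was 0.36, against 0.01 over all genes that passed. Among all 14, which were well above background, 6 were higher and 2 were lower, the latter being Wnt3a (-1.33 and -1.11) and Olig3 (-1.23 and -1.03). Of the 12 telencephalic genes 6 passed and 3 were higher, among them Lmo1 at 0.52 and 0.95 and Dlx2 at 0.51 and 0.42. The others that passed were Nr2e1 (0.25 and 0.68), Emx2 (-0.16 and 0.62) and Lhx2 (-0.18 and 0.86). Emx2 and Lhx2 were thus lower on array 1 and higher on array 2. Wnt3a, Olig3, Nr2e1, Emx2 and Lhx2 were also singled out after their values were seen. Lmo1, Dlx2 and Nr2e1 are among the genes the study selected from these same arrays, so their ratios are not independent evidence either. The telencephalic median was 0.46, but on array 1 it was 0.38 and on array 2 it was 0.77. Counts and medians describe these lists, and no set test was run.

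**Figure D4:**
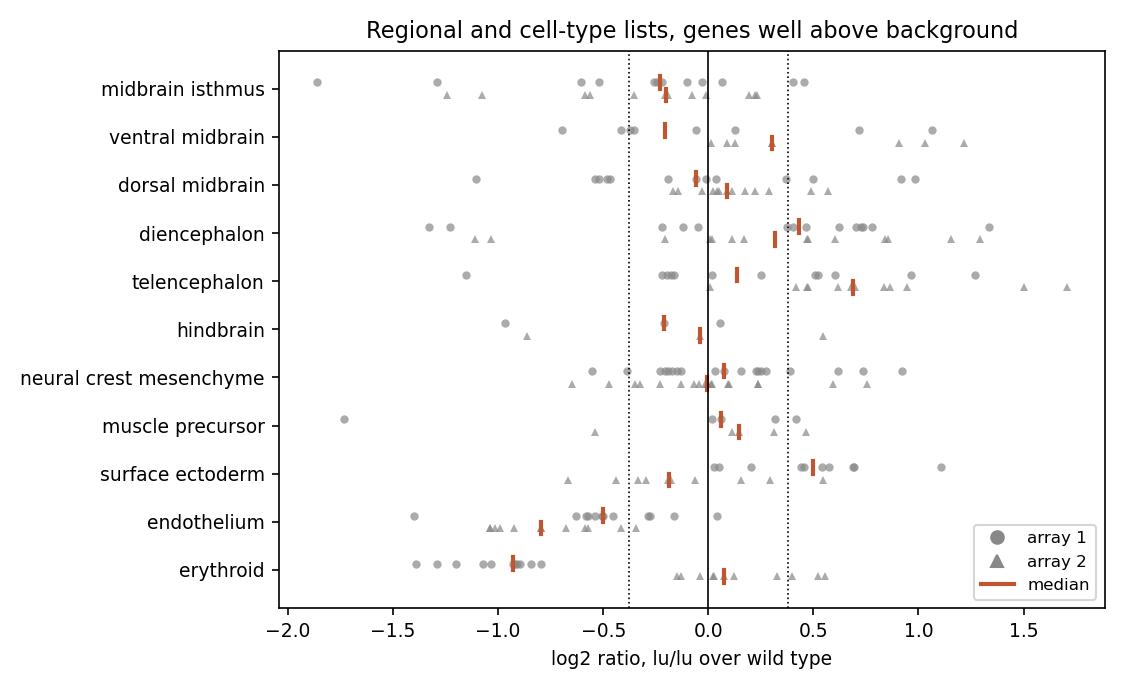
Log2 ratio of lu/lu over wild type for the well-above-background genes of 11 regional and cell-type lists, array 1 as circles and array 2 as triangles, with the median of each as an orange bar and 1.3-fold as dotted lines. The diencephalic medians lie above 0 on both arrays and the endothelial medians below 0 on both, while the erythroid medians differ between the arrays.

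Genes of other tissues that the dissection could hold differed as well. Of 12 endothelial genes all were well above background and 8 were lower, with a median of -0.50 on array 1 and -0.79 on array 2, and summed signals of 6410 and 7033 in wild type against 5224 and 4817 in lu/lu. Of 5 that passed the filter, 3 were lower: Emcn at -0.63 and -0.68, Plvap at -0.58 and -0.79 and Icam2 at -0.50 and -0.57. These 3, and Cd93 among the 8, are genes the study selected from these same arrays. Their ratios are thus not independent evidence of a direction. Erythroid genes had a median of -0.93 on array 1 and 0.08 on array 2, with summed signals of 473924 and 196108 in wild type against 253660 and 239493 in lu/lu. The 10 surface ectoderm genes had medians of 0.50 and -0.18. Of 20 neural crest and mesenchyme genes 16 passed, and none was past 1.3-fold on both arrays. Of the 19 well above background 1 was higher (Alx1, 0.74 and 0.75) and 1 lower (Sox10, a neural crest marker, -0.39 and -0.65), both named after their values were seen, and the summed signals of the list were 28688 and 26122 in wild type against 30927 and 25121 in lu/lu. None of 9 muscle precursor genes passed the filter, and of the 5 well above background 1 was lower (Tbx1, -1.73 and -0.54, named after its values were seen). Of 11 hindbrain genes 8 were not well above background in every channel, and their summed signals were 520 and 442 in wild type against 341 and 324 in lu/lu. The part of any of these in the members' ratios was not tested.

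The mutated gene, Zbtb16, was read by a probe at 433 and 546 in wild type and 172 and 211 in lu/lu (log2 ratio -1.33 and -1.37), and a second, dim probe gave -0.87 and -1.09. Each array had 59305 gene spots, of which 137 on array 1 and 126 on array 2 were flagged as outliers and left out, and none was saturated. Per channel 36936 to 44318 spots were well above background. Because there were 2 arrays, the number of replicates limited the precision of every comparison.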

How the data were processed

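RNA from forebrain and midbrain of E10.5 wild type and Plzf lu/lu embryos was amplified, labelled and hybridized by the authors to Agilent SurePrint G3 Mouse Gene Exp v2 arrays, both on 1 slide. The deposited intensities are processed signals from Feature Extraction 10.7.3.1, background subtracted and dye normalized array by array (LOWESS on rank-consistent probes). The deposited log10 ratios and the deposited log2 table hold the same comparison. Probe coordinates are in mm9.

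Spots that were controls or carried an outlier flag were removed. Repeated spots of a probe were averaged as log2 values, and the probe with the highest mean signal stood for a gene. The filter asked for a processed signal above 200 and a signal-to-noise ratio of 5 or more in each of the 4 channels. Log2 ratios of lu/lu over wild type were fitted in limma 3.58.1 (R 4.3.3; lmFit with an intercept, eBayes, Benjamini-Hochberg over all genes tested), which was tested on simulated data. A member that missed the filter took its p from the fit without a filter. The replicates are paired within an array by the ratio. Named genes of other lists were those past 1.3-fold on both arrays under the filter, with the paralogs Irx4, Irx5, Irx6, Meis3 and Gbx1 and with Zbtb16; some of these genes are not reported here. The alternatives were normexp (offset 50) with loess or centring, the deposited log2 table, other filters, probe averaging, a 1.5-fold limit, the mean of both arrays, removal of the trend on GC content, an intensity trend in eBayes, channels as separate samples, and leaving out each array. The members and lists were chosen with earlier results of these data known.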

Additional observations from a re-analysis of the deposited data

How the results depend on the processing

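The count of members higher beyond 1.3-fold was 1 and became 0 under normexp with loess, with the mean over probes, at 1.5-fold and with the GC trend removed. It was 2 with the mean of both arrays past 1.3-fold, 2 with no replicate block (the 4 channels as separate samples), and 2 without array 1 (Otx2 and Meis2) or without array 2 (Otx2 and Meis1). The count lower was 1 and became 0 under normexp with loess and at 1.5-fold, 2 with the filter in at least 1 channel of each array, where Irx2 entered only through the wild type channels in which it is higher, so that this count supports nothing, and 3 with genes well above background or with no filter. It ran from 1 to 2 with 1 array left out, Irx1 being added to Pax3 without array 1. Without the replicate block the count lower stayed at 1. The cause of these moves was not tested, except that the looser filters admit members that the main filter leaves out.

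The median log2 ratio of the 10 members was 0.04, and it was -0.21 under normexp centred on passing genes, where the median over all 37071 genes was itself -0.53. Leaving out 1 array gave -0.078 to 0.075. Otx1, at -0.02 over both arrays, changed sign with the GC trend removed (0.077) and ran from -0.29 to 0.24 with 1 array left out. Pax7 changed sign under normexp centred on passing genes (-0.068). The other members kept their sign under every alternative run. Of the 6 members under the filter, 4 passed an adjusted p of 0.05 in limma under normexp centred on passing genes, 2 with the eBayes trend and 1 with the GC trend removed. In the fits without a filter, Otx1, Gbx2 and Irx2 also did under normexp centred on passing genes, Gbx2 and Irx2 with the eBayes trend, and Gbx2 under normexp with loess (0.0352). Signal over background limited what could be said of Otx1 and Gbx2.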
